A study of Homo sapiens with 20 samples.

Results

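The acrocentric chromosomes 13, 14, 15, 21 and 22 carry short arms that are represented at length only on the CHM13 genome. Members were taken from the 6 deposited reference peak lists on CHM13 v1.0 as the peaks whose centre lay below 15 Mb on chromosome 13, 10 Mb on chromosome 14, 16 Mb on chromosome 15, 10.5 Mb on chromosome 21 and 12.5 Mb on chromosome 22. These 64 Mb held 354 of 191415 peaks, or 0.185%. From CHM13 cells came 134 RAD21 peaks (of 74116 in the list), 73 SA1 peaks (of 36986) and 68 SA2 peaks (of 43746). From RPE-1 cells came 40 RAD21 peaks (of 16078), 15 SA1 peaks (of 10910) and 24 SA2 peaks (of 9579).

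ChIP-seq of cohesin was performed in CHM13, a cell line established from a hydatidiform mole, with 3 libraries per antibody, and in RPE-1, a retinal pigment epithelial line, with 2 per antibody. Both are hTERT lines. SA1 and SA2 were precipitated with the same Bethyl antibodies in both lines (A302-579A and A302-580A), whereas RAD21 was precipitated with Abcam ab992 in CHM13 and ab154769 in RPE-1, so that the line and the antibody cannot be told apart for RAD21. The study also reports different sonicators for the lines, Drosophila chromatin added to CHM13 only and more reads for most CHM13 cohesin libraries. For all 3 subunits the line cannot be told apart from these or from the number of replicates. RPE-1 reads were aligned to the genome of CHM13, a different individual.

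Cohesin is a ring that holds sister chromatids together and extrudes chromatin loops. RAD21 is the subunit that closes the ring, and each ring carries either SA1 or SA2, which bind RAD21 and take part in loading the ring on chromatin and in retaining it at sites of CTCF. The short arms of the acrocentric chromosomes carry the nucleolus organisers, tandem arrays of the 45S ribosomal RNA gene transcribed by RNA polymerase I, between satellite-rich blocks and a segment towards the telomere (the distal junction) that is much alike on all of them. CHM13 v1.0 leaves most of each ribosomal array as a sequence gap, so a stretch without peaks may hold no sequence. Because reads that fit several copies equally were placed at one of them, copies on different arms cannot be told apart from these lists, and peaks at equal positions are not independent observations.

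Sequences could be read only on hg38, in which the short arm of chromosome 21 is partly assembled. GENCODE types some genes of this arm as artifact, a label for erroneous assembly. The hg38 peaks were not matched to the sites of CHM13 v1.0 described below. Of 78 RAD21 peaks of CHM13 cells on the short arms of chromosomes 21 and 22 of hg38, 9 overlapped peaks of the other 5 lists. The share of such peaks over the whole hg38 list was not counted, and on CHM13 v1.0 it was 8.37% of the whole list. The 5 widest of those 9 RAD21 peaks were considered, and 2 of them, 1445 and 1392 bp wide, lay before a 45S gene and are left out. The 300 bases around the centre of the other 3 (1677, 868 and 539 bp wide) are shown. The capitals mark the core of the CTCF motif, searched on both strands as CCA, 2 free bases, AG, 2 free bases and GGC.
chr21:6569640-6569939, forward strand: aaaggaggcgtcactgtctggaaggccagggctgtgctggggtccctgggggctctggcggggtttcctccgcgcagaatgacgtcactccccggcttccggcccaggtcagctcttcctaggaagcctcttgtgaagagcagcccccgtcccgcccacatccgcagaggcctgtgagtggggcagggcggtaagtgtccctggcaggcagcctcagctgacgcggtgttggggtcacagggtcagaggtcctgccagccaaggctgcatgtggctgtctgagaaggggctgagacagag
chr21:6373914-6374213, forward strand: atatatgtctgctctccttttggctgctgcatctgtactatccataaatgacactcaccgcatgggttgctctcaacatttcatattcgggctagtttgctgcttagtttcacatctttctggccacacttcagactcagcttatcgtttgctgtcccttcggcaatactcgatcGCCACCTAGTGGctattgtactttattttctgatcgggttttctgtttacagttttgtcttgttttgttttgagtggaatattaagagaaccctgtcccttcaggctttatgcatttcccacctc
chr21:5536635-5536934, forward strand: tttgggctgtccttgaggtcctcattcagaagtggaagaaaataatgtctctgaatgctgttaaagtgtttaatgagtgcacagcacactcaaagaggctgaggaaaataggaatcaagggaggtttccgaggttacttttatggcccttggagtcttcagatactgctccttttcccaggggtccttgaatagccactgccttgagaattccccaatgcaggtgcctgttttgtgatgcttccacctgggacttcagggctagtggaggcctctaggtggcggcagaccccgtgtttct
A core match was present in 1 of the 3 windows shown. Only exact matches were searched, so a window without capitals may still hold a motif that differs by a base. Over all 78 peaks, 8 (10.3%, Wilson 95% interval 5.29 to 19.0%) had a match within 300 bases, beside 12.3% of all 73881 RAD21 peaks of CHM13 cells on hg38. The windows of these peaks therefore held the letters about as often as those of the list as a whole.

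Cohesin peaks were sparse on the short arms of all 5 chromosomes. In CHM13 cells, RAD21 peaks lay at 2.09 per Mb (exact Poisson 95% interval 1.75 to 2.48) on the short arms and at 24.1 per Mb (23.6 to 24.6) on the long arms of the same chromosomes, which include the centromere here, a ratio of 0.0869 (0.0727 to 0.103). Per chromosome the short-arm density of RAD21 was 1.53 peaks per Mb on chromosome 13, 2.60 on chromosome 14, 1.44 on chromosome 15, 2.48 on chromosome 21 and 2.88 on chromosome 22. The long-arm densities lay between 19.5 and 28.7 peaks per Mb, so that the ranges of the arms did not overlap. SA1 and SA2 of CHM13 cells gave ratios of 0.0956 (0.0748 to 0.120) and 0.0760 (0.0590 to 0.0966). The RAD21 ratio was 0.116 (0.0823 to 0.158) when RPE-1 cells were counted. Their SA1 peaks gave 0.0684 (0.0381 to 0.113), and their SA2 peaks gave 0.124 (0.0792 to 0.186). In each of the 6 lists the short arm was lower on 5 of 5 chromosomes. The exact two-sided sign-flip permutation test over these 5 chromosomes gave p = 0.0625 for every list, which is the smallest value that 5 chromosomes allow, so the difference could not pass 0.05 in this design. Since each list pools the libraries of one antibody, no spread between replicates is known, and all intervals cover counting error only. Stretches over 1 Mb without a peak of any list took up much of the short arms. With these left out of both arms, the pooled ratios were higher, between 0.305 for SA1 and 0.555 for SA2 of RPE-1 cells, and 0.388 for RAD21 of CHM13 cells. The exact sign-flip permutation test then gave adjusted p = 0.125 for RAD21 and SA2 of RPE-1 cells, and 0.09375 for the other lists. For RAD21 and SA2 of RPE-1 cells the short arm was thus no longer lower on every chromosome.

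**Figure D1:**
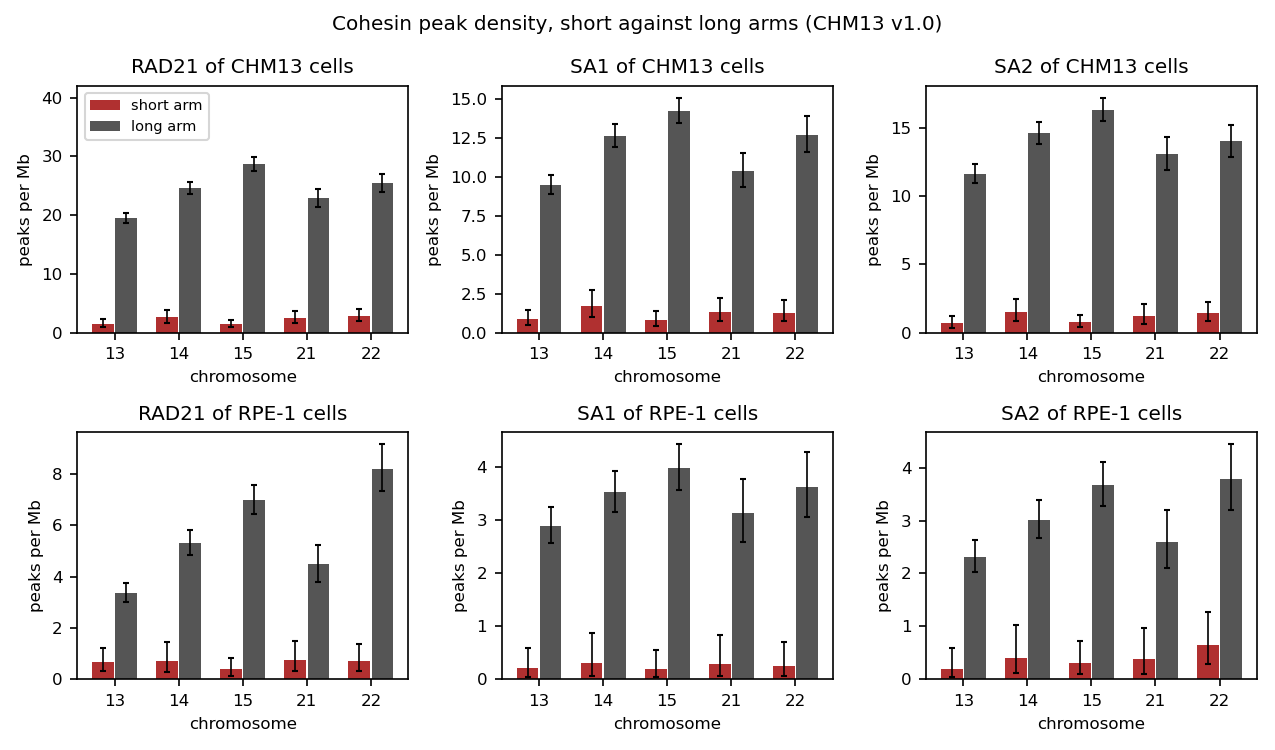
Peaks per Mb on the short (red) and long (grey) arms of the 5 acrocentric chromosomes for each pooled list, with exact Poisson 95% intervals. The vertical scales differ between panels, and the short arm is below the long arm in each of them.

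The peaks were unevenly spread along the arms. Of 128 bins of 500 kb on the short arms, 91 (71.1%) held no RAD21 peak of CHM13 cells, beside 11.9% of 700 bins on the long arms and 14.1% of bins over all chromosomes (Fisher's exact test, two-sided, adjusted p = 5.60e-42 over the 6 lists). Bins without a peak made up 70.3% for SA1 and 71.1% for SA2 of CHM13 cells, beside 15.4% and 15.8% over all chromosomes. In RPE-1 cells they made up 85.9% for RAD21, 93% for SA1 and 89.1% for SA2, where 28.1%, 30.9% and 36.1% of all bins were empty. Each of these shares exceeded that of the long arms, with adjusted p of at most 1.54e-30. Neighbouring bins are not independent and may be gaps, and these p-values cover counting error only. Of the 128 bins, 83 (64.8%) held no peak of any list.

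The longest stretches without a peak of any list were 5.20 Mb on chromosome 13 (chr13:1-5195773), 3.47 Mb on chromosome 14 (chr14:4409767-7877146), 3.43 Mb on chromosome 15 (chr15:11624778-15057867), 3.18 Mb on chromosome 21 (chr21:3117395-6295674) and 4.29 Mb on chromosome 22 (chr22:13212-4308022). With only peaks at least as wide as their list's median counted, the longest stretch measured 6.79 Mb on chromosome 14 and 16.3 Mb on chromosome 15, where 13.5 Mb lay on the short arm and 2.85 Mb past its boundary. The short arms held 20 stretches over 1 Mb, which together measured 49.6 of 64 Mb, and the long arms held 23, which measured 41.8 of 349 Mb. On chromosomes 13 and 22 the longest stretch ran from the telomere side of the arm to the first group of peaks, whereas on chromosome 21 it followed the densest group. On the telomere side, chromosomes 15, 21 and 22 each had a site within 20 kb of the end of the assembled sequence. The site of chromosome 15 was centred 14.4 kb from the end and that of chromosome 21 11.3 kb from it, both with peaks of all 3 subunits in CHM13 cells, and that of chromosome 22 lay 12.9 kb from the end with RAD21 and SA1. Chromosome 15 had a further RAD21 peak, at chr15:667-1320. No RPE-1 list had a peak within 20 kb of any of the 5 ends, and the tips of chromosomes 13 and 14 had none of any list.

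Many of the peaks on each arm fell in 1 compact segment. The fullest bin held 8 RAD21 peaks of CHM13 cells on chromosome 13, 13 on chromosome 14, 15 on chromosome 15, 14 on chromosome 21 and 15 on chromosome 22, and the segment lay in or beside it. It was chosen after the values were seen, so its counts are a description. A reference peak was set on each arm as the widest RAD21 peak of CHM13 cells in the 20 kb before the first stretch of over 500 kb without peaks that followed the fullest bin. These reference peaks were chr13:5761763-5763228, chr14:2091150-2092627, chr15:2497522-2498994, chr21:3099474-3100773 and chr22:4784796-4786268. Their widths were 1466, 1478, 1473, 1300 and 1473 bp, where the median RAD21 peak on the short arms was 598.5 bp wide. They were the widest RAD21 peaks of their arms on chromosomes 13, 14 and 15, while on chromosome 21 the widest was chr21:10468770-10470594 (1825 bp) and on chromosome 22 chr22:4497872-4499355 (1484 bp). The site had peaks of all 6 lists on chromosomes 13, 14, 15 and 21, and of 5 lists on chromosome 22, where SA2 of RPE-1 cells had none. The stretches without peaks began 4.71 to 17.9 kb after the start of the reference peak.

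The 300 kb before the reference peak and the few kb up to the stretch made up 2.44% of the short-arm length. From CHM13 cells they held 73 RAD21 peaks (54.5% of 134). They also held 28 SA1 peaks (38.4% of 73) and 30 SA2 peaks (44.1% of 68). Of the RPE-1 peaks they held 26 of 40 for RAD21, 12 of 15 for SA1 and 12 of 24 for SA2. Every arm contributed, with 11, 14, 17, 14 and 17 RAD21 peaks of CHM13 cells on chromosomes 13, 14, 15, 21 and 22. The density of RAD21 in this segment was 46.7 peaks per Mb in CHM13 cells, beside 24.1 per Mb on the long arms. It was 0.977 per Mb on the rest of the short arms, where 61 peaks were left. Because the segment was placed by its RAD21 peaks of CHM13 cells, a high density there follows in part from the choice. No long-arm segment chosen in the same way was counted. In RPE-1 cells RAD21 lay at 16.6 per Mb in the segment, beside 5.41 per Mb on the long arms and 0.224 per Mb on the rest of the short arms.

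**Figure D2:**
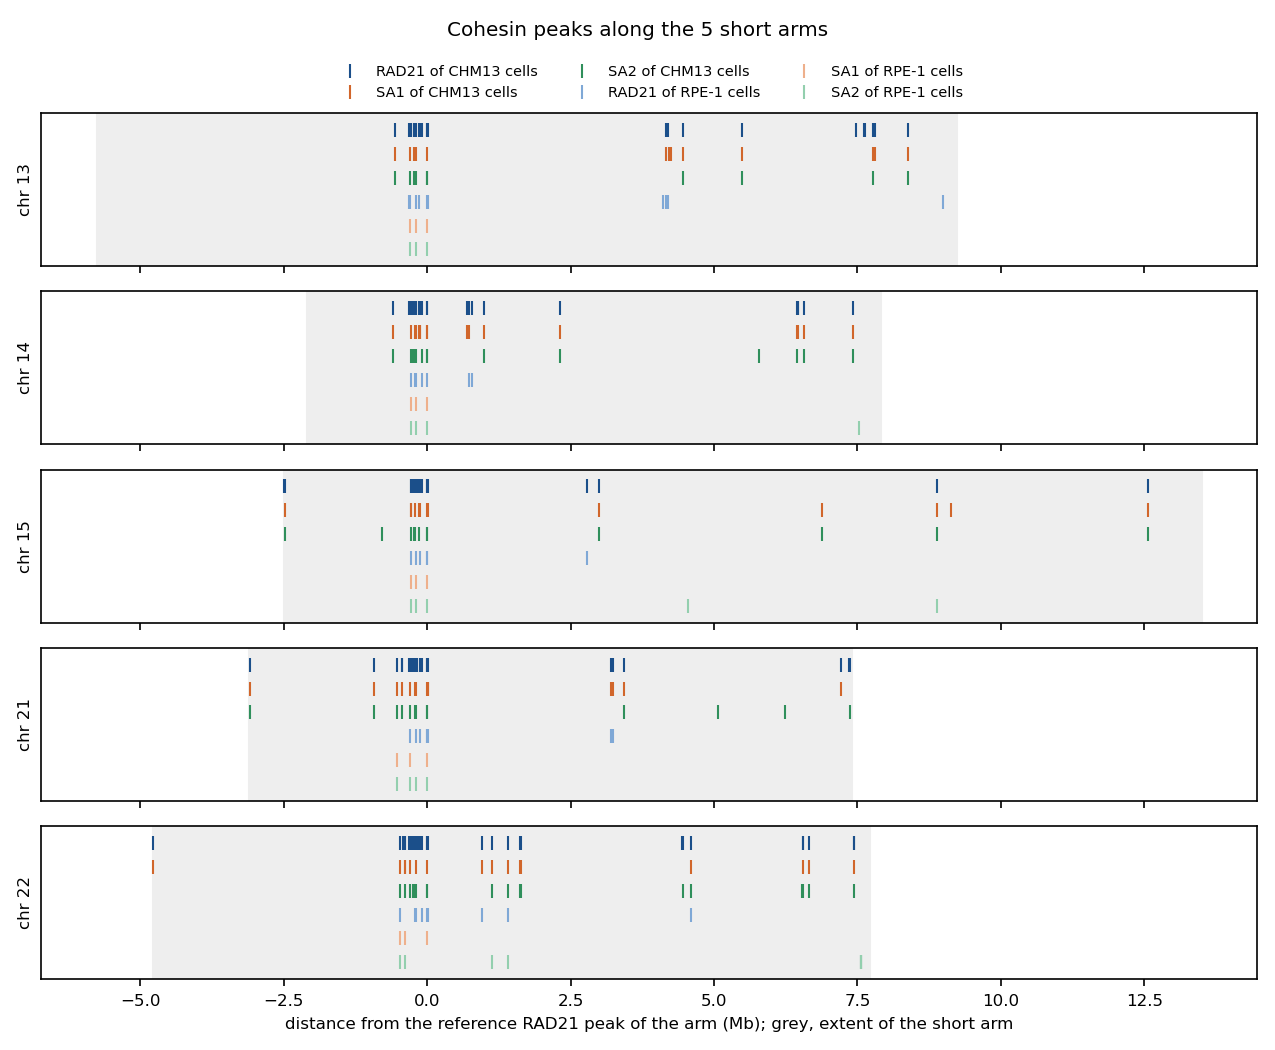
Peaks of the 6 lists (rows of ticks) on each short arm, by distance in Mb from the reference RAD21 peak of that arm. Grey marks the extent of the arm, and the ticks crowd in the 300 kb before 0 on all 5 arms.

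Within this segment, sites recurred at like distances from the reference peak on all 5 arms. A site with peaks of all 3 subunits in CHM13 cells was found 291 kb before it on chromosomes 13, 21 and 22, 289 kb before it on chromosome 14 and 287 kb before it on chromosome 15. All 3 subunits of RPE-1 cells had a peak there too, except on chromosome 22, where RPE-1 cells had none. The next site followed 4.32 to 4.84 kb later and had only a RAD21 peak of CHM13 cells on 4 arms, and RAD21 with SA1 on chromosome 15. A further site lay 201 kb before the reference peak on chromosomes 13, 21 and 22, 198 kb before it on chromosome 14 and 197 kb before it on chromosome 15. It was spaced 90.0 to 90.3 kb from the first on every arm. The copies on chromosomes 13 and 14 had peaks in 6 lists, that of chromosome 21 in 5 and that of chromosome 22 in 4. The copy on chromosome 15 had peaks of all 3 subunits in RPE-1 cells and of none in CHM13 cells, and was the only site of the 5 short arms with that combination. The reference peak and these recurring sites made up 10 of the 11 sites with peaks in all 6 lists, and the other was chr22:4308023-4308752, 477 kb before the reference peak of its arm.

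Sites with fewer lists recurred as well. A RAD21 peak of CHM13 cells lay 97.7 to 98.0 kb before the reference peak on all 5 arms, and it was the only peak there on chromosomes 13, 15 and 21. Another was found 129 to 131 kb before it on all 5, between 647 and 1465 bp wide, without SA2 in either line. Past the reference peak, a RAD21 peak with SA2 of CHM13 cells stood 3.72 to 3.83 kb on all 5 arms, joined by SA1 on chromosome 14. Another RAD21 peak about 11 kb past the reference peak was present on chromosomes 13, 15, 21 and 22. The arm of chromosome 14 had none, its stretch without peaks beginning 4.71 kb after the start of the reference peak. Of 72 RAD21 peaks of CHM13 cells from 330 kb before the reference peak to 20 kb after it, the reference peaks themselves left out, 44 had a counterpart within 1 kb of the same distance on at least 1 other arm, and 10 on all the others. By chromosome, those with at least 1 counterpart were 9 of 11, 4 of 14, 7 of 16, 11 of 14 and 13 of 17 for chromosomes 13, 14, 15, 21 and 22. The share was lower on chromosomes 14 and 15 than on the other 3 at this tolerance. Peaks are dense in this segment, and how many would have a counterpart without any shared order was not tested. These counts and the difference between arms are therefore a description.

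**Figure D3:**
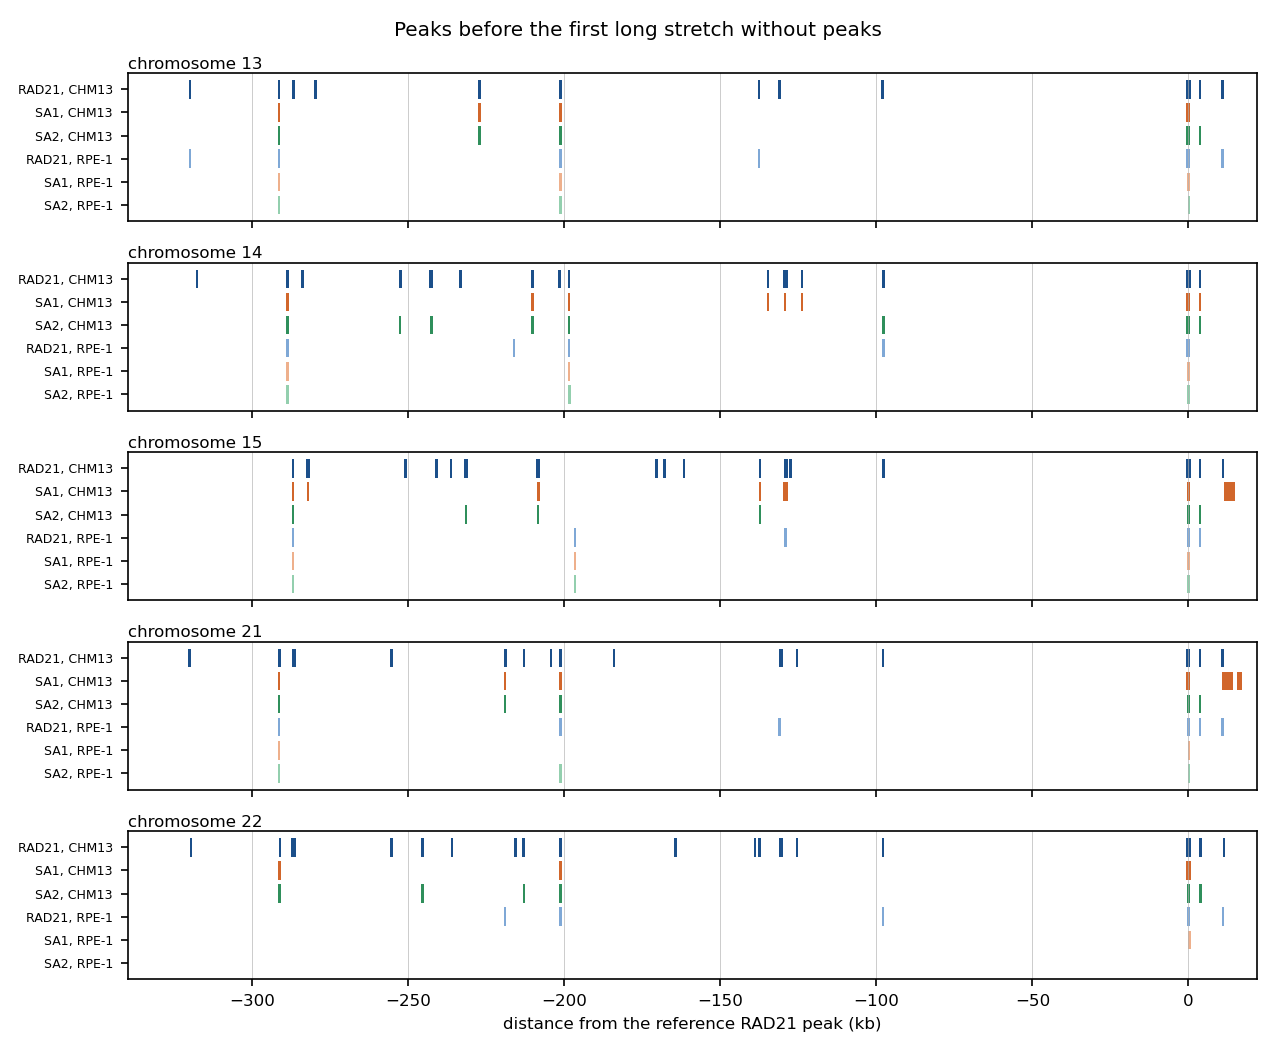
Peaks from 340 kb before to 20 kb after the reference RAD21 peak (at 0) on each arm, with marks at least 0.8 kb wide so that narrow peaks can be seen. Sites near 291, 201 and 98.0 kb before it and 4 kb after it recur on every arm.

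A like order of peaks was found beside the 45S ribosomal RNA genes of hg38. RefSeq places 3 of these genes on chromosome 21 (RNA45SN1, chr21:8433222-8446572; RNA45SN2, chr21:8205988-8219302; RNA45SN3, chr21:8389035-8402343), RNA45SN4 on an unlocalised chromosome 22 sequence and RNA45SN5 on an unplaced one. The promoter of RNA45SN2 is shown because the wide SA1 peak of CHM13 cells covers it, with the first 50 bases of the gene in capitals.
chr21:8205738-8206037, forward strand: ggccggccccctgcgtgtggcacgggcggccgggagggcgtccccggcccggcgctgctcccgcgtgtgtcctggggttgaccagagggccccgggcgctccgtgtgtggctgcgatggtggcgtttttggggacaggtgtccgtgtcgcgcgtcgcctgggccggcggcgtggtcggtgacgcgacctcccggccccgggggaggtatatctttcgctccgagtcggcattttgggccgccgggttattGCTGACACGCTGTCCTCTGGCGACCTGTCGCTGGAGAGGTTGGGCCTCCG
This window was identical at all 5 genes and held no match to the core of the CTCF motif. RAD21 peaks of CHM13 cells 413 to 507 bp wide were centred 0.822 to 0.880 kb before the start of 5 of 5 genes, and those of RPE-1 cells 0.870 to 0.899 kb before 5 of 5. At 4 of the 5 genes, all but RNA45SN1, a RAD21 peak of CHM13 cells stood 8.31 to 8.36 kb before the start, together with SA2 of CHM13 cells and RAD21 of RPE-1 cells, while neither SA1 list, nor SA2 of RPE-1 cells, had a peak there. At the same 4 genes all 6 lists had a peak about 12 kb before the start. The RAD21 peaks of CHM13 cells there were centred 11.8 to 12.2 kb before it and 715 to 1463 bp wide. Thus a wide peak in all lists, a RAD21 and SA2 peak and a RAD21 peak followed each other towards these 4 genes on hg38. The same order was found at and past the reference peaks of chromosomes 13, 15 and 21 of CHM13 v1.0. On chromosome 22 the wide peak was in 5 lists, and on chromosome 14 the last RAD21 peak was missing. Sequences of the 2 builds were not compared, and reads that fit several of the 5 genes cannot be told apart.

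SA1 of CHM13 cells stood apart at the 45S genes. A single SA1 peak 3364 to 4111 bp wide covered the start of all 5 genes and was centred 0.708 to 1.06 kb into them. No other list had a peak over the start. A further SA1 peak of 2193 bp lay over the end of RNA45SN4. On CHM13 v1.0, 9 of 73 SA1 peaks of CHM13 cells on the short arms were wider than 2 kb (12.3%), beside 0.745% on the long arms and 0.884% in the whole list. None of the peaks of the other 5 lists on the short arms was as wide. The 9 peaks measured 2818 to 3702 bp. They lay beside either end of the stretch that followed the reference peak, on all 5 arms, 2 each on chromosomes 13 and 14, 1 each on chromosomes 15 and 22 and 3 on chromosome 21. On chromosome 21, for example, chr21:3111034-3114423 stood before the stretch and chr21:6296313-6299750 and chr21:6345583-6348481 after it. A RAD21 peak of CHM13 cells overlapped 4 of them, and the other 5 had one within 183 to 748 bp and overlapped no peak of any other list. The RPE-1 lists are shorter, at 10910 against 36986 SA1 peaks, and the part of list length in their lack of wide peaks was not tested.

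**Figure D4:**
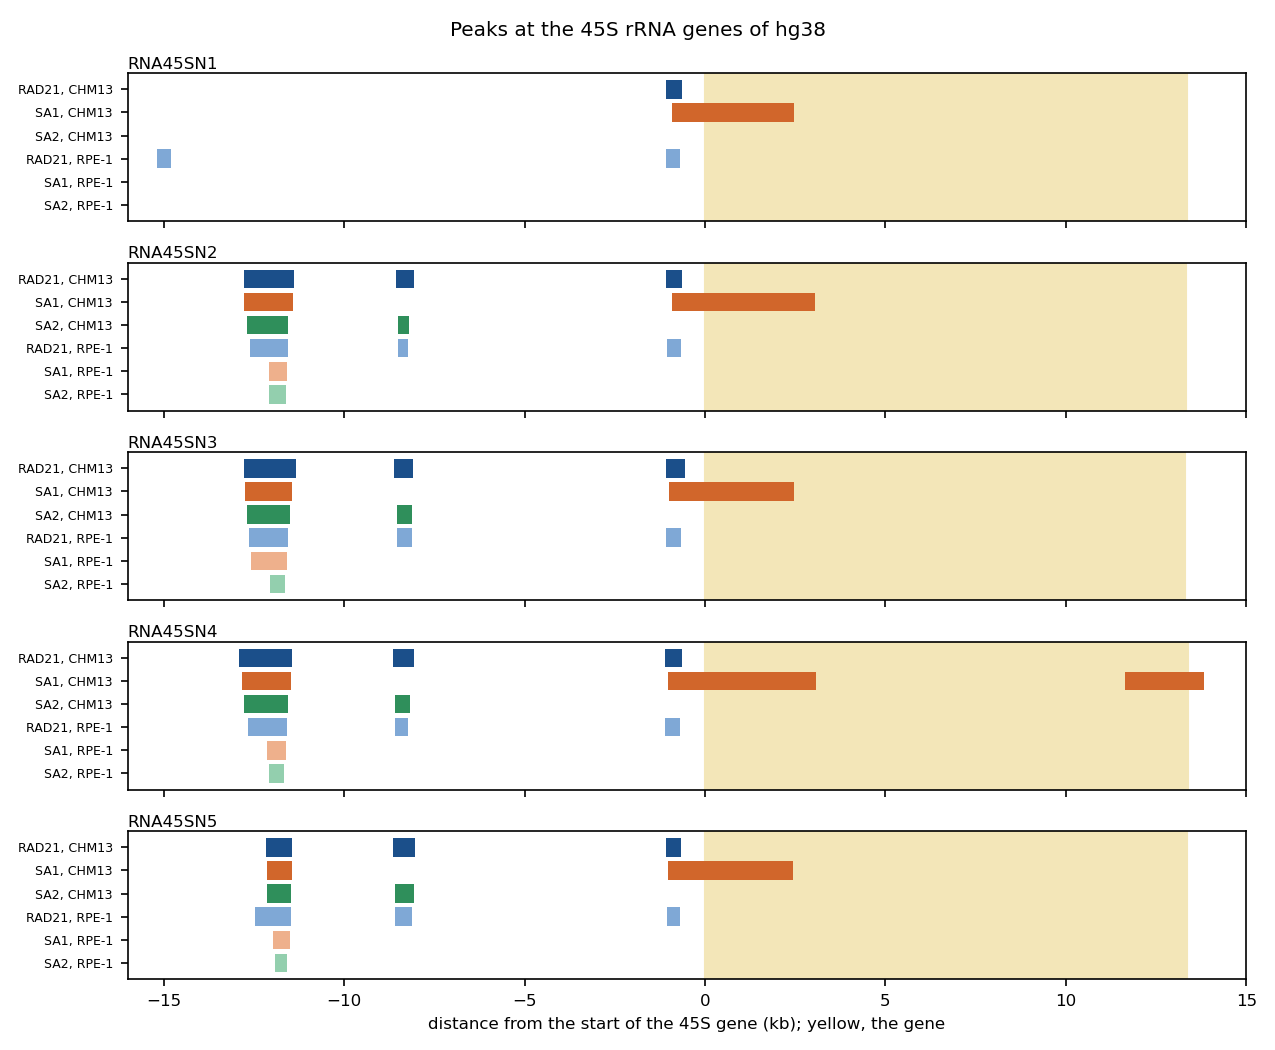
Peaks of the 6 lists at the 5 annotated 45S genes of hg38, by distance in kb from the gene's start, drawn to their width. The gene is shaded, and the wide SA1 peak of CHM13 cells covers the start in all 5 panels.

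Few of the genes annotated on the hg38 short arms are protein-coding. Of 143 genes of GENCODE on chromosome 21 below 11 Mb and chromosome 22 below 13 Mb, 1 was protein-coding: TPTE (chr21:10521553-10606140), which held 1 peak of each CHM13 list and none of the RPE-1 lists. GENCODE types 19 of the genes as artifact, a label for erroneous assembly, and 9 of the 78 RAD21 peaks of CHM13 cells (11.5%) lay in these. They were the only such peaks of the whole hg38 list (9 of 73881, 0.0122%), so the 2 shares count the same 9 peaks. The lncRNA ENSG00000280441 (chr21:8380643-8454792), which spans RNA45SN3 and RNA45SN1, held 3 RAD21, 2 SA1 and 1 SA2 peaks of CHM13 cells and 4 RAD21 peaks of RPE-1 cells. ENSG00000278996 (chr21:8197620-8227646), which spans RNA45SN2, held 2, 1 and 1, and 2 RAD21 peaks of RPE-1 cells. The microRNA genes MIR6724-1 and MIR6724-3, which lie just before the 45S start, overlapped the RAD21 peak of both lines and the wide SA1 peak. MIR6724-4 overlapped the RAD21 and SA1 peaks of CHM13 cells only. The pseudogenes CTBP2P10 and CTBP2P9 each held a RAD21 peak in both lines and no SA1 or SA2 peak. Of the 78 peaks, 52 (66.7%) overlapped no gene of the annotation, beside 30.0% of the whole list.

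The short arms were less uniformly sparse on hg38. On chromosome 21, RAD21 of CHM13 cells lay at 15.6 peaks per Mb of known sequence, beside 23.6 on the long arm, a ratio of 0.661 (0.510 to 0.844). SA1 gave 0.877 (0.621 to 1.21) there, and SA2 gave 0.612 (0.425 to 0.857). The 27 RAD21 peaks of RPE-1 cells on the short arm of chromosome 21 lay at 6.01 per Mb, beside 4.07 on the long arm, and the interval of the ratio ran from 0.939 to 2.24. On chromosome 22, 8 RAD21, 4 SA1 and 6 SA2 peaks of CHM13 cells fell on 1.68 Mb of known sequence, with a RAD21 ratio of 0.171 (0.0738 to 0.339), and RPE-1 cells had none in any list. The chromosome 21 ratios lay above those of CHM13 v1.0, where the same chromosome gave 0.108 for RAD21 of CHM13 cells. They are counted over unlike lengths, however. The short arm of chromosome 21 counted 4.49 Mb without N on hg38, but its full 10.5 Mb, any gaps included, on CHM13 v1.0. The long arm began at 13 Mb on hg38 and at the boundary of the short arm on CHM13 v1.0. The 2 builds represent different lengths of these arms and their lists are called separately, so the difference was not tested. Of the 78 RAD21 peaks of CHM13 cells on the 2 hg38 short arms, 9 lay in genes typed as artifact. Their part in these densities was not tested either.

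Past the first long stretch the arms were thinly occupied, and a few spacings were alike between arms. The first site there with peaks of all 3 subunits of CHM13 cells and no peak over 2 kb was chr13:10221333-10221947, chr14:3080960-3081602, chr15:5493199-5493724, chr21:6523289-6523840 or chr22:5923447-5924056. It lay 251, 253, 175 and 177 kb after the last wide SA1 peak on chromosomes 13, 14, 21 and 22. On chromosome 15, where the wide peak stood before the stretch, it lay 2980 kb after it. Spacings between neighbouring RAD21 peaks of CHM13 cells in this part of the arm were compared between arms, with 7 of 552 pairs of spacings being within 2% of each other. Of these, 3 were shared by chromosomes 13 and 21: 49.3 and 48.7 kb, 141.1 and 141.2 kb, and 8.69 and 8.58 kb. The last 2 were consecutive on both arms. Chromosomes 14 and 22 shared 2, 212.9 and 212.8 kb and 5.41 and 5.38 kb. These pairs were picked from many and are given as a description, and how many would agree without any shared order was not tested.

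The subunits shared fewer sites on the short arms than on the long arms in several comparisons. Overlapping peaks formed 159 sites, of which 47 had RAD21 of CHM13 cells alone, 30 had the 3 subunits of CHM13 cells only and 11 had all 6 lists. The 11 RAD21 peaks of CHM13 cells at the latter made up 8.21% of 134, near the 8.37% of the whole list. Of SA1 peaks of CHM13 cells, 64 of 73 (87.7%, Wilson 95% interval 78.2 to 93.4%) overlapped RAD21 on the short arms and 97.6% did so on the long arms, beside 97.5% of the list (Fisher's exact test, two-sided, adjusted p = 0.00111 over 12 pairs). Overlap of SA1 with SA2 was found for 51 of 73 peaks (69.9%) against 86.7%, beside 87.3% (adjusted p = 0.00111 by the exact test). Both calls rested on the wide SA1 peaks described above. With SA1 peaks over 2 kb left out, an alternative chosen after seeing the data, the shares were 93.8% and 79.7%, with adjusted p = 0.15 and 0.203 by Fisher's exact test. SA2 peaks overlapped RAD21 in 62 of 68 cases (91.2%) against 98.6%, beside 98.5% (exact test, adjusted p = 0.00223). RAD21 peaks overlapped SA2 in 62 of 134 cases (46.3%) against 56.3%, beside 57% (exact test, adjusted p = 0.0456). This call was lost under both stricter rules of overlap, with adjusted p = 0.369 by the exact test where 50% of both peaks had to overlap and 0.0567 where centres had to lie within 500 bp. For RAD21 with SA1 the shares were 47.8% and 47.5%, beside 47.8% in the list, and for SA2 with SA1 75% and 74.1%, beside 73.9%, with adjusted p of 1 in both. Of the RAD21 peaks of CHM13 cells on the short arms, 58 of 134 (43.3%) overlapped neither SA1 nor SA2, where 38.6% did so on the long arms.

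In RPE-1 cells the numbers were small. RAD21 peaks overlapped SA1 in 13 of 40 cases (32.5%) against 50.5% on the long arms, beside 53.3% of the list (adjusted p = 0.0456 by Fisher's exact test). SA2 peaks overlapped RAD21 in 14 of 24 cases (58.3%) against 83.0%, beside 82% (exact test, adjusted p = 0.0133). SA1 peaks overlapped SA2 in 14 of 15 cases (93.3%) against 66.1%, beside 67.8% (exact test, adjusted p = 0.0456), the one call with a higher share on the short arms. The other 3 pairs did not pass the test. They were RAD21 with SA2 at 35.0% against 46.3%, beside 48.8%, SA1 with RAD21 at 86.7% against 79.7%, beside 78.7%, and SA2 with SA1 at 58.3% against 75%, beside 77.3%, and their adjusted p by Fisher's exact test ran from 0.139 to 0.898. Several of these calls changed when overlap was defined more strictly. With at least 50% of both peaks required, SA1 with RAD21 in CHM13 cells stood at 80.8% against 85.4% and SA2 with RAD21 at 89.7% against 87.9%, and neither difference passed. Peaks at recurring positions on several arms entered these tests as separate peaks. The same holds for neighbouring SA2 peaks of RPE-1 cells on chromosome 22 that overlapped no other list, described below.

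**Figure D5:**
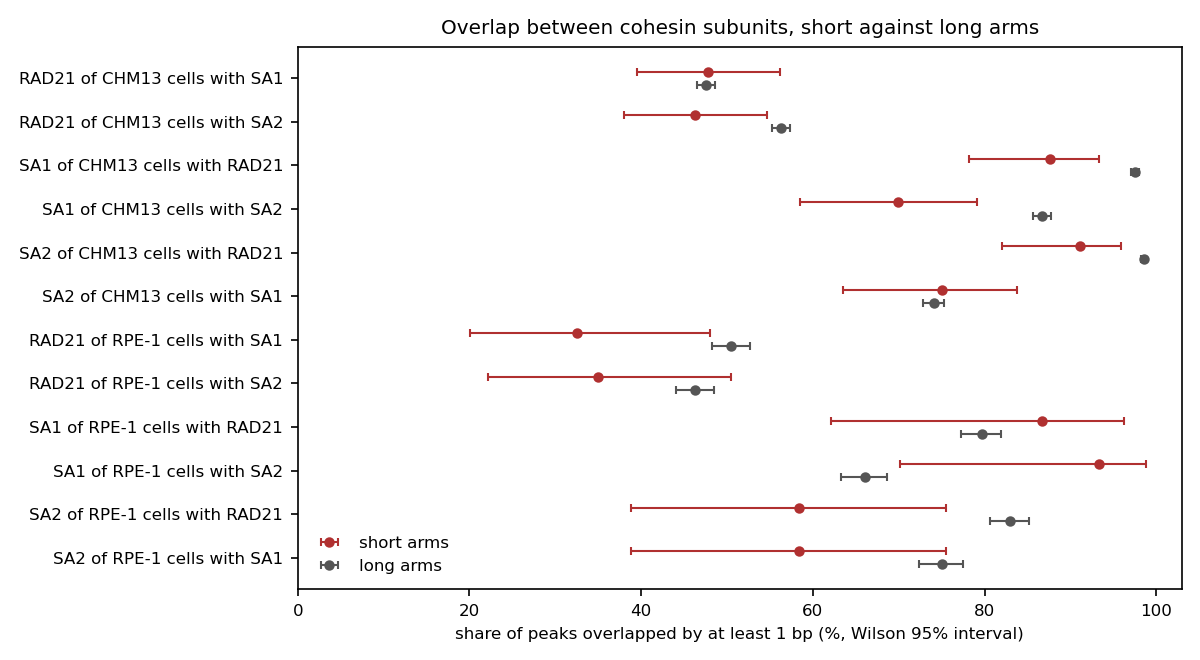
Share of the peaks of each list that overlapped another subunit of the same line by at least 1 bp, on short (red) and long (grey) arms, with Wilson 95% intervals. SA1 (87.7% against 97.6%) and SA2 (91.2% against 98.6%) of CHM13 cells overlap RAD21 on a smaller share of peaks on the short arms. For SA1 the difference does not pass the test without its wide peaks. With 50% of both peaks required neither difference passes, and that of SA2 turns. With centres within 500 bp the call for SA2 is lost. The intervals of the RPE-1 lists are wide.

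Most short-arm peaks of RPE-1 cells were also found in CHM13 cells. For RAD21 35 of 40 peaks (87.5%, Wilson 95% interval 73.9 to 94.5%) overlapped a RAD21 peak of CHM13 cells, against 97.5% on the long arms and beside 97% of the list (Fisher's exact test, adjusted p = 0.0124 over 6 comparisons). For SA1 the share was 14 of 15 (93.3%) against 96.4%, beside 97.1% (exact test, adjusted p = 0.455). For SA2 it was 17 of 24 (70.8%, 50.8 to 85.1%) against 98.1%, beside 97.6% (exact test, adjusted p = 4.25e-06). Several of the unmatched SA2 peaks lay side by side on chromosome 22, as described below, and the test counted each as a separate peak. These results depended on the rule of overlap. With at least 50% of both peaks required, RAD21 turned to 82.5% against 75.8% (exact test, adjusted p = 0.545) and SA2 lost its call at 62.5% against 75.8% (exact test, adjusted p = 0.388). With centres within 500 bp, the call for RAD21 was lost (exact test, adjusted p = 0.248). In the other direction the share of CHM13 peaks with an RPE-1 partner was 26.1% for RAD21 (21.7% on the long arms, 20.8% of the list), 19.2% for SA1 (27.6% and 28.5%) and 25% for SA2 (21.2% and 21.3%). None of these 3 comparisons passed the test.

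The SA2 peaks of RPE-1 cells without a partner were close together. Of 7 such peaks, 4 lay in chr22:12338701-12346405, near the boundary of the arm, where no other list had a peak. The widest measured 1948 and 1856 bp, and these were the widest and second widest of all 9579 SA2 peaks of RPE-1 cells. The others were chr14:9615271-9616289, chr15:7038701-7038998 and the chromosome 15 copy of the recurring site described above, which all 3 RPE-1 lists shared. The RAD21 peaks of RPE-1 cells at no RAD21 peak of CHM13 cells numbered 5, on chromosomes 13 (2), 14, 15 and 22.

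The share of peaks that fell on the short rather than the long arms did not differ between lists by the tests made. It was 1.57% for RAD21 of CHM13 cells and 2.08% for RAD21 of RPE-1 cells, an odds ratio of 0.752 (95% interval 0.526 to 1.07, Fisher's exact test, adjusted p = 0.173 over 3 comparisons). The odds ratio of CHM13 to RPE-1 cells was 1.40 (0.799 to 2.45, adjusted p = 0.30 by the exact test) for SA1 and 0.612 (0.383 to 0.979, adjusted p = 0.160 by the exact test) for SA2. Between subunits of a line none of 6 comparisons passed, and the odds ratios ran from 0.591 for SA1 against RAD21 to 1.82 for SA2 against SA1, both in RPE-1 cells. With 15 to 40 short-arm peaks in the RPE-1 lists, the intervals are wide, and differences within them were not detectable.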

How the data were processed

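The series holds 20 ChIP-seq libraries, 15 of cohesin subunits and 5 labelled tc (3 of CHM13 and 2 of RPE-1 cells), which are not used here. Per the study's methods, the authors aligned reads with bwa, removed unmapped, secondary and supplementary alignments with samtools, called peaks with macs, merged the calls of replicates and discarded loci not found in at least 2 replicates. No mapping quality filter is named, and how reads were aligned to hg38 is not given in the sources used here. The deposited files used here hold peak positions only (chromosome, start and end), 6 lists on CHM13 v1.0 and 6 on hg38, with no height or score, and the files give no depth per library. Depth was not used here. Replicates were thus pooled before deposit.

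Counts, overlaps and exact tests were computed in Python 3.11.15 with numpy 2.4.6 and scipy 1.17.1. An overlap was at least 1 bp, and a peak belonged to an arm by its centre. The 500-kb bins were counted from base 1. Adjusted p-values are Benjamini-Hochberg values, called at 0.05. The interval and overlap functions were tested on simulated lists. Genes came from GENCODE and RefSeq, and sequences from hg38, of which 1 set is not reported here. Regions named were, per arm, the longest stretch without peaks, the fullest bin, the widest RAD21 peak and sites in all lists. On hg38 they were genes that held a RAD21 peak of CHM13 cells and the RAD21 peaks that most lists shared. The members and lists were chosen with earlier results of these data known. The alternatives changed the arm boundary, the long-arm start, the peaks counted, the bin size and the overlap required.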

Additional observations from a re-analysis of the deposited data

How the results depend on the processing

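The pooled density of the short arms stayed below that of the long arms in every list under each of the 16 alternatives tried per list. The ratios ran from 0.0405 to 0.388 for RAD21 of CHM13 cells and from 0.0140 to 0.555 over all lists. The shares of empty bins kept their call with bins of 250 kb and 1 Mb. Co-occupancy depended on the overlap required. With at least 50% of both peaks, calls were lost for RAD21 with SA2 (45.5%) and SA1 with RAD21 (80.8%) of CHM13 cells and SA1 with SA2 of RPE-1 cells (86.7%), and directions turned for SA2 with RAD21 of CHM13 cells (89.7%) and SA1 with RAD21 of RPE-1 cells (73.3%). With centres within 500 bp, calls were lost for RAD21 with SA2 (45.5%) and SA2 with RAD21 (89.7%) of CHM13 cells and for RAD21 with SA1 (32.5%) and SA1 with SA2 (93.3%) of RPE-1 cells, and RAD21 with SA1 of CHM13 cells turned (44.8%). Leaving out SA1 peaks over 2 kb, chosen after seeing the data, took the call from SA1 with RAD21 (93.8%) and SA1 with SA2 (79.7%) of CHM13 cells. Of RPE-1 peaks found in CHM13 cells, the 50% overlap turned RAD21 (82.5%) and SA1 (80.0%) and took the call from SA2 (62.5%), and the centre rule took it from RAD21 (87.5%). The odds ratio of SA2 to RAD21 in RPE-1 cells was 0.977 with peaks closer than 1 kb joined. With only peaks at least as wide as their list's median, the longest stretches were 5.47, 6.79, 16.3 and 4.11 Mb on chromosomes 13, 14, 15 and 21, of which that of chromosome 15 ran 2.85 Mb past the arm's boundary. The cause was not tested for these changes. No paired analysis was possible because the deposited lists pool the replicates, and for the same reason no replicate could be left out.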
